A study of Mus musculus with 8 samples.

Results

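The voltage-gated sodium channel genes described here were 8 of the 22337 genes in an RNA-seq table of the nucleus accumbens, the reward-related region at the base of the striatum. They were chosen by symbol and comprised 5 genes of pore-forming alpha subunits (Scn1a, Scn2a, Scn3a, Scn8a and Scn9a) and 3 of auxiliary beta subunits (Scn2b, Scn3b and Scn4b). All 8 symbols were found once in the table. The tissue came from male C57BL/6 mice given morphine, an agonist of mu opioid receptors (4 libraries), or saline (4 libraries), and the series asks what chronic morphine exposure does to the transcriptome of this region. No label used here states the dose, the schedule or the age of the mice. The labels do not say that the libraries of a group came from separate animals, so the p-values rest on the variation among these libraries alone, which may be technical.

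A voltage-gated sodium channel opens when the membrane depolarises, lets sodium in and so starts the action potential. The alpha subunit alone forms the pore, the voltage sensors and the inactivation gate. Beta subunits are small proteins with a single membrane span and an immunoglobulin-like outer domain that change how the pore gates and where it sits. In the brain the channels are concentrated at the axon initial segment and at the nodes of Ranvier, held there by ankyrin-G. In the striatum, Scn4b is known as a gene of the medium spiny projection neurons.

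Levels were in FPKM, a fragment count scaled to transcript length and library size. They compare genes only roughly: the annotation behind the lengths is not stated, and the complementary DNA was primed with oligo-dT. They summed to between 486547.6 and 501627.6 in the morphine libraries and between 480003.6 and 540104.1 in the saline libraries, and the read depth is unknown. Mitochondrially encoded genes took 6.09 to 7.94% of the sum in morphine and 9.09 to 12.62% in saline. Of 20 markers of striatal projection neurons, none was at 0 throughout a group, but their summed level was 364.0 to 504.4 FPKM in morphine and 1169 to 1418 FPKM in saline replicates 1, 2 and 4, with 5540 FPKM in saline replicate 3. The dopamine receptor gene Drd2, which defines a class of these neurons, had 0.17 to 0.55 FPKM in morphine and 1.85 to 4.11 FPKM in saline replicates 1, 2 and 4, with 23.09 FPKM in saline replicate 3. Saline replicate 3 also had the lowest summed level of 10 cortical glutamatergic markers, 42.69 FPKM, where the morphine libraries had 205.6 to 261.2 FPKM and the other saline libraries 178.0 to 182.2 FPKM. It therefore stands apart from the other libraries in these markers.

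Scn4b was the only member called different between the morphine and saline libraries. Of the 7 members that reached 1 FPKM in 4 or more libraries, 1 fell, none rose and 6 did not pass (limma, Benjamini-Hochberg adjusted p under 0.05 over 12536 genes), where 2.52% of all tested genes passed, 1.04% as higher and 1.48% as lower. Scn4b reached 1 FPKM in 6 libraries, all 4 of saline among them. The median change of log2(FPKM + 1) over these 7 was −0.05, and it was 0.01 over all tested genes. The number of genes passing in the whole table was 316 (130 higher, 186 lower). It was 0 without morphine replicate 3, without morphine replicate 4 or without saline replicate 2 (1953, 2136 and 2005 genes at an unadjusted p under 0.05), 70 without morphine replicate 2, 75 without saline replicate 1 and 102 without morphine replicate 1. Other scalings moved the split to 81 higher and 246 lower (upper quartile) and to 77 higher and 211 lower (mitochondrial genes removed).

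**Figure D1:**
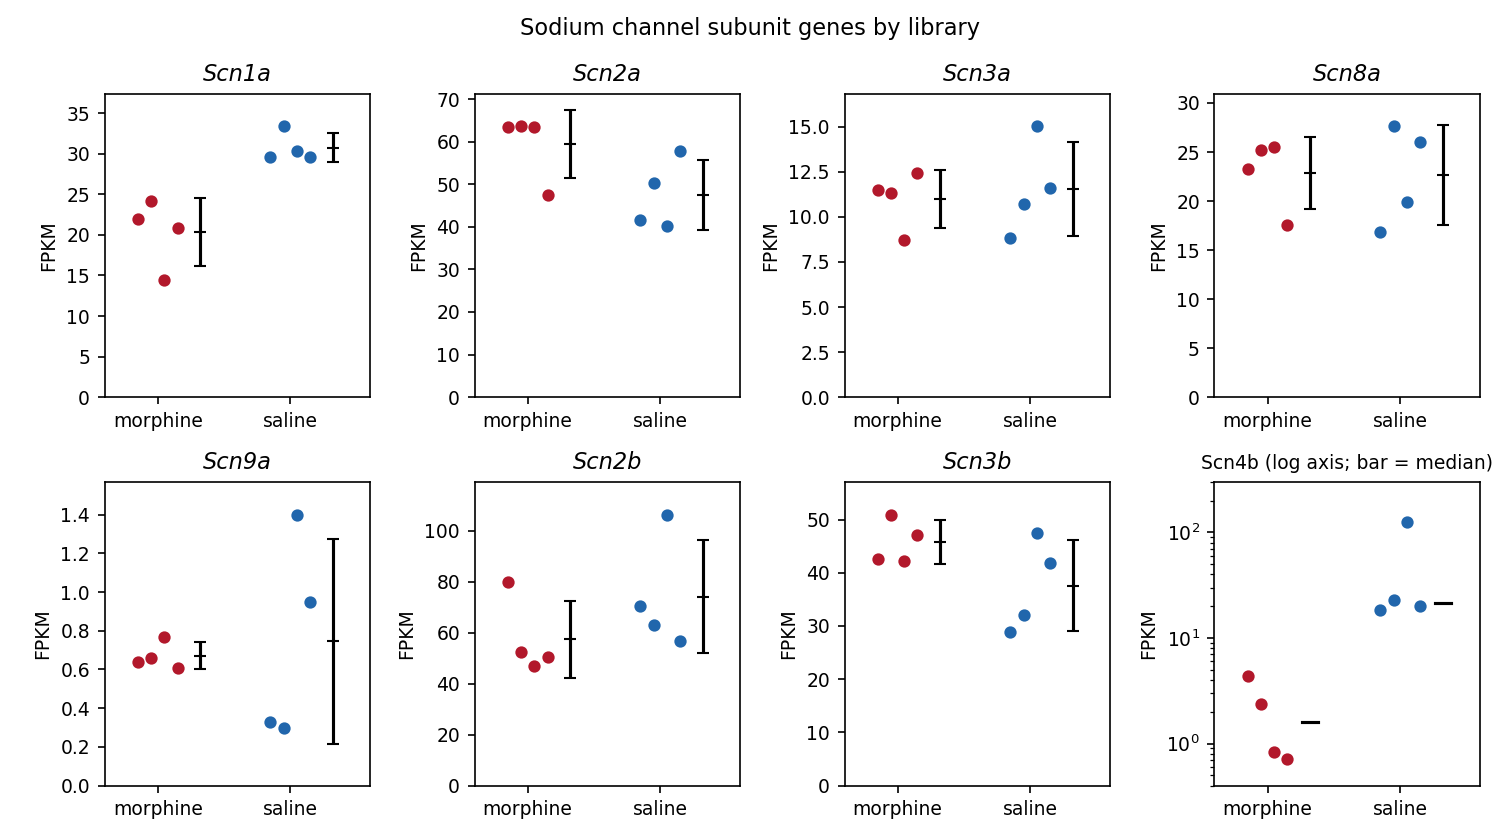
FPKM of the 8 sodium channel subunit genes in each of the 4 morphine (red, left) and 4 saline (blue, right) libraries, with replicates 1 to 4 drawn from left to right. Black marks give the mean and SD, except for Scn4b, drawn on a log axis with the median. The morphine and saline points are apart for Scn1a and Scn4b and overlap for the other members.

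Among the beta subunits, Scn4b encodes the one best known for resurgent sodium current: its cytoplasmic tail can plug the open pore and leave it again on repolarisation, which favours repeated firing. Scn4b had 4.35, 2.38, 0.84 and 0.72 FPKM in morphine replicates 1 to 4, against 18.51, 23.12, 124.4 and 19.92 FPKM in saline replicates 1 to 4. All morphine values lay below all saline values, and saline replicate 3 was 5.38 times as high as the next saline library. The mean was 2.07 ± 1.70 FPKM in morphine and 46.5 ± 52.0 FPKM in saline (SD, n = 4 each), 22.4-fold lower in morphine. On the log2(FPKM + 1) scale, which understates the change of a gene this low, Scn4b fell by 3.60 ± 0.58 (SE; 95% interval −4.87 to −2.33; limma adjusted p = 0.0207), and no other of the 12536 tested genes fell by more on that scale. In tissue such as this, fewer cells of a type, whether in the animal or in the piece taken, and less RNA per cell cannot be told apart.

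The fall of Scn4b did not rest on saline replicate 3, but the call rested on other libraries. Without saline replicate 3 the morphine mean was 9.90-fold lower than a saline mean of 20.5 ± 2.36 FPKM (SD, n = 3), and the log2 change was −2.96 (limma adjusted p = 0.00500). The adjusted p passed the threshold without morphine replicate 1, saline replicate 1 or saline replicate 4, and missed it without morphine replicate 2 (0.0519), morphine replicate 3 (0.0821), morphine replicate 4 (0.0657) or saline replicate 2 (0.0680). With no filter on low values, which raised the number of genes tested to 19607, it was 0.0621. The log2 change was negative in all 15 alternatives, from −4.24 (with a pseudocount of 0.1, so on another scale) to −2.96. Its sign could not turn when a library was left out, since all morphine values lay below all saline values. Settings of the filter or the trend leave the change itself as it was.

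Scn4b moved together with the markers of striatal projection neurons. Of the 20 markers, 13 fell and 0 rose (median log2 change −2.28), where 1.48% of all tested genes passed as lower. Isl1, among the 13, reached 1 FPKM only in the 4 saline libraries, so it entered the test through them. All morphine values lay below all saline values for 17 of the 20, where this was so for 6.1% of all tested genes. Ppp1r1b, the gene of a phosphatase inhibitor downstream of dopamine receptors, had 118.07, 64.63, 72.79 and 65.05 FPKM in morphine, against 318.16, 340.97, 1454.6 and 321.65 FPKM in saline. Relative to it, Scn4b was still lower: there were 3.68, 3.68, 1.15 and 1.11 FPKM of Scn4b per 100 FPKM of Ppp1r1b in morphine, against 5.82, 6.78, 8.55 and 6.19 in saline. The same ratio to Drd1, the dopamine receptor gene of the direct pathway, was 27.4 to 78.0 in morphine and 85.1 to 142.7 in saline (85.1 to 116.1 without replicate 3). Over the 20 markers, the ratio of Scn4b to the marker was lower in every morphine library than in every saline library for 11 and overlapped for 9, among them Adora2a and Lrrc10b. These ratios are descriptions, and the part of the markers in the result was not tested.

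**Figure D2:**
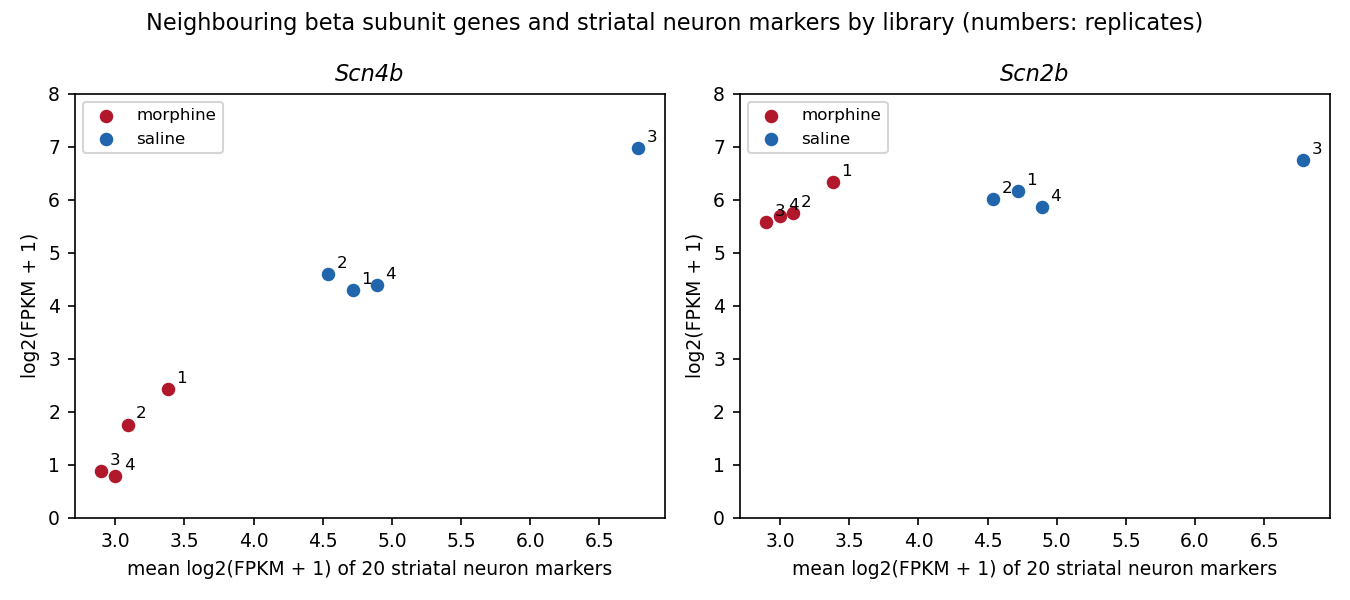
Level of Scn4b (left panel) and Scn2b (right panel) as log2(FPKM + 1), against the mean log2(FPKM + 1) of 20 striatal projection neuron markers, in morphine (red) and saline (blue) libraries numbered by replicate. The Scn4b points lie below 3 in morphine, at marker means of 2.90 to 3.38, and above 4 in saline, at marker means of 4.54 to 6.78, while the Scn2b points of the groups overlap in level.

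Scn2b is a protein-coding neighbour of Scn4b and its relative in function, since both beta subunits are joined to the alpha subunit by a disulfide bond. Scn2b lies at 45117782 to 45130070 on the plus strand of chromosome 9 and Scn4b at 45138395 to 45154152 on the same strand (GENCODE M21, GRCm38), with 8324 bp and no other protein-coding gene between them. Their RefSeq start regions run from 250 bases before to 50 after the RefSeq start site (GRCm38.p6, plus strand, chr9:45138374-45138673 for Scn4b and chr9:45117626-45117925 for Scn2b). RefSeq and GENCODE place these starts differently. The GENCODE gene of Scn4b begins at 45138395, so nearly all of its region lies inside that gene. The GENCODE start of Scn2b, 45117782, falls within the Scn2b region. The sequences are shown because these adjacent genes of like function differed in their change. Whether the sequences have a part in that was not tested. Capitals mark the match to a searched motif.
Scn4b: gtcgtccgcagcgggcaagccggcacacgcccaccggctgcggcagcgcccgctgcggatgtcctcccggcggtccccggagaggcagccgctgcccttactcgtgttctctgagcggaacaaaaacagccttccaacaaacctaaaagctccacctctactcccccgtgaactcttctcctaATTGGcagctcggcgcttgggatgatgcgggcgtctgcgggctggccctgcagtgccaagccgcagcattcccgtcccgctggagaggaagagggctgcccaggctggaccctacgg
Scn2b: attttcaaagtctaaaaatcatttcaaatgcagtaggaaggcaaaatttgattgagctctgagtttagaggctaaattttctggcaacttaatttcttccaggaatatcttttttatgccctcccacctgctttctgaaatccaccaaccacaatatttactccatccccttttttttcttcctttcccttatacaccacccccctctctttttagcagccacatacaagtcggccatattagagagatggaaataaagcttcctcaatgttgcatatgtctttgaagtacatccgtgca
The Scn4b region had a GC content of 66.3% and 26 CpG dinucleotides, and the Scn2b region 38.3% and 2, where the medians over 32851 such regions were 52.7% and 7. Searched on both strands, CCAAT, the CCAAT box, was found in 37.4% of all regions and once in that of Scn4b. There it was the reverse complement, from 67 bases before the RefSeq start. The GC box GGGCGG (35.7% of all regions), the TATA box TATAAA (13.6%), the cyclic AMP response element TGACGTCA (1.79%), the AP-1 site TGANTCA (7.81%) and the E-box CACGTG (7.15%) had no match in either region. Start regions were matched for 6 of the 8 members.

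Scn2b had 79.76, 52.42, 46.89 and 50.7 FPKM in morphine, against 70.42, 63.17, 106.43 and 56.71 FPKM in saline. The groups overlapped, with morphine replicate 1 high in its group and saline replicate 3 highest of all. The log2 change was −0.35 ± 0.21 (SE; 95% interval −0.82 to 0.12; limma adjusted p = 0.385). Without saline replicate 3 it was −0.17, and leaving out each library in turn gave −0.52 to −0.17. Within each library, the difference of log2(FPKM + 1) between Scn4b and Scn2b averaged −4.38 ± 0.50 in morphine and −1.13 ± 0.93 in saline (SD, n = 4 each). These differed by −3.25 (exact permutation test, two-sided, p = 0.0286, the smallest that 70 assignments allow), and by −2.80 without saline replicate 3. The pair was chosen with the fall of Scn4b known, and Scn4b alone already parted the groups, so this p is not separate evidence.

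Scn3b, the third beta subunit, associates with the alpha subunit without a disulfide bond. It had 42.53, 50.94, 42.27 and 47.08 FPKM in morphine, against 28.94, 32.07, 47.53 and 41.76 FPKM in saline. The morphine values lay close together and 3 saline values lay below all of them, but the groups overlapped (log2 change 0.30 ± 0.16 SE, 95% interval −0.04 to 0.64, limma adjusted p = 0.314). The make-up of the beta subunit RNA is given as a description, with no test. Scn4b made up 0.731 to 3.44% of the summed FPKM of the 3 beta subunits in morphine and 15.7 to 44.7% in saline, with 15.7 to 19.5% in saline replicates 1, 2 and 4. The share of Scn3b was 33.6 to 48.2% in morphine and 17.1 to 35.3% in saline, and that of Scn2b was 49.6 to 63.0% in morphine and 38.2 to 59.7% in saline. Without saline replicate 3 the saline shares were 24.6 to 35.3% for Scn3b and 47.9 to 59.7% for Scn2b.

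Among the alpha subunits, Scn1a had the lowest p. It encodes the main sodium channel of fast-spiking inhibitory interneurons, and loss of a copy in people causes the epilepsy known as Dravet syndrome. Scn1a had 21.95, 24.13, 14.5 and 20.87 FPKM in morphine, against 29.66, 33.42, 30.36 and 29.61 FPKM in saline. All morphine values lay below all saline values, and saline replicate 3 was not apart. Of the 7 tested members, the groups of 2 did not overlap, Scn1a and Scn4b, both lower in morphine, where this was so for 12.7% of all tested genes and as lower for 6.1%. The log2 change of Scn1a was −0.59 ± 0.15 (SE; 95% interval −0.92 to −0.27) and did not pass (limma adjusted p = 0.0631; 0.0506 to 0.152 over 15 alternatives, all with a negative change). With the groups apart, that sign could not turn when a library was left out. Its mean was 20.4 ± 4.14 FPKM in morphine and 30.8 ± 1.80 FPKM in saline (SD, n = 4 each). Of 8 interneuron markers, Chat, of cholinergic interneurons, fell and none rose. Chat reached 1 FPKM only in the 4 saline libraries, so it entered the test through the group where it was high. The summed levels of the 8 were 674.5 to 1449 FPKM in morphine and 333.0 to 1047 FPKM in saline (691.2 to 1047 FPKM without saline replicate 3). Pvalb, the marker of fast-spiking interneurons, had 6.59 to 17.53 FPKM in morphine and 5.10 to 26.28 FPKM in saline (12.63 to 26.28 FPKM without saline replicate 3). Its groups overlapped with and without that library. The part of these cells in the values of Scn1a was not tested.

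Scn2a, the most abundant alpha subunit in all 8 libraries, encodes a channel of axons and of excitatory neurons in early life. It had 63.38, 63.67, 63.45 and 47.4 FPKM in morphine, against 41.51, 50.29, 40.12 and 57.81 FPKM in saline. Morphine replicates 1 to 3 lay above every saline library and morphine replicate 4 lay among them. The log2 change was 0.33 ± 0.15 (SE; 95% interval 0.00229 to 0.65) and did not pass (limma adjusted p = 0.245).

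Scn8a, whose channel carries most of the current at mature initial segments and nodes, had 23.26, 25.16, 25.47 and 17.55 FPKM in morphine, against 16.87, 27.65, 19.95 and 26.07 FPKM in saline. Both groups covered much the same range, and the log2 change of 0.03 ± 0.17 (SE; 95% interval −0.36 to 0.41; limma adjusted p = 0.956) has no settled sign. It was −0.024 under upper quartile scaling, which put the median of all tested genes at −0.033, where it was 0.012 before. Scn3a, expressed mainly before birth, had 11.47, 11.34, 8.7 and 12.43 FPKM in morphine, against 8.82, 10.72, 15.04 and 11.62 FPKM in saline. Its groups overlapped (log2 change −0.05 ± 0.17 SE, 95% interval −0.42 to 0.31, limma adjusted p = 0.891), and without saline replicate 3 the change was 0.07. Scn9a, best known from pain-sensing neurons, reached an FPKM of 1 in 1 library and was not tested. It had 0.64, 0.66, 0.77 and 0.61 FPKM in morphine, against 0.33, 0.3, 1.4 and 0.95 FPKM in saline, and the morphine values lay inside the saline range. An annotated antisense gene overlaps exons of Scn9a, and since the strand setting is not stated, its reads cannot be told apart from those of Scn9a.

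**Figure D3:**
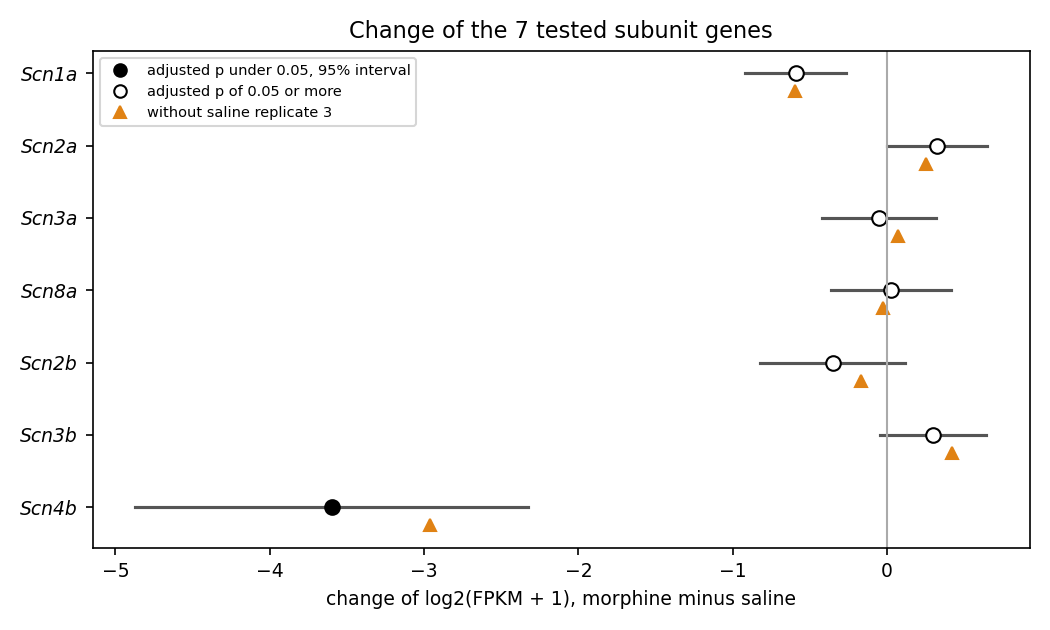
Change of log2(FPKM + 1), morphine minus saline, of the 7 tested sodium channel subunit genes, with 95% intervals from limma (horizontal lines) and the change without saline replicate 3 (triangles). The filled circle marks Scn4b at −3.60, and the open circles, which did not pass, lie between −0.59 (Scn1a) and 0.33 (Scn2a).

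The summed alpha subunit level was 114.4 ± 11.5 FPKM in morphine and 113.1 ± 13.5 FPKM in saline (SD, n = 4 each), and its make-up is given as a description, with no test. The share of Scn1a in this sum was 12.8 to 21.1% in morphine and 23.5 to 30.5% in saline, and that of Scn2a was 48.0 to 56.2% in morphine and 37.5 to 45.9% in saline. Neither share overlapped between the groups. Shares of a sum are tied to each other, so a lower share of Scn1a raises the rest, and the 2 are not separate results. The shares of Scn8a (17.8 to 22.6% in morphine, 17.4 to 22.6% in saline) and Scn3a (7.71 to 12.6% in morphine, 8.76 to 14.1% in saline) overlapped, and Scn9a stayed at or under 1.31%.

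**Figure D4:**
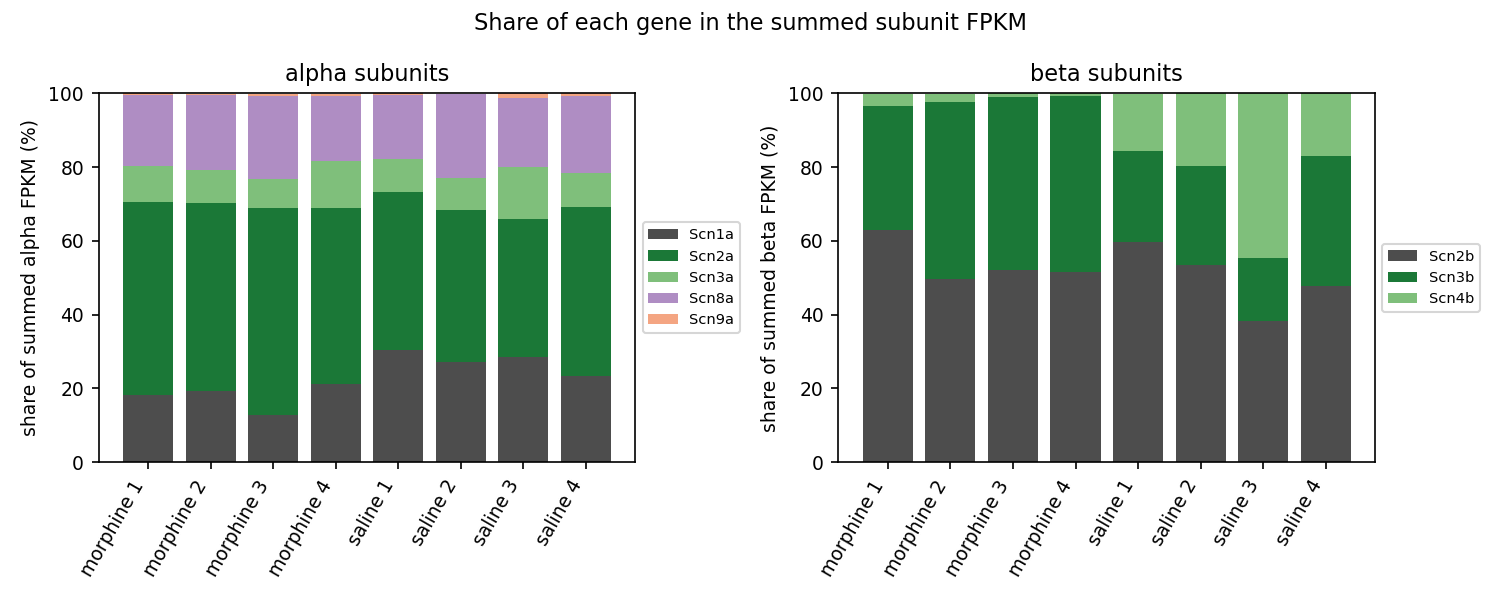
Share of each gene in the summed FPKM of the 5 alpha subunits (left panel) and the 3 beta subunits (right panel), in %, for 4 morphine and then 4 saline libraries. The Scn1a segment is 12.8 to 21.1% in morphine and 23.5 to 30.5% in saline, and the Scn4b segment is 0.731 to 3.44% in morphine, against 15.7 to 44.7% in saline.

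By mean level, the order in morphine was Scn2a, Scn2b, Scn3b, Scn8a, Scn1a, Scn3a, Scn4b and Scn9a. In saline it was Scn2b, Scn2a, Scn4b, Scn3b, Scn1a, Scn8a, Scn3a and Scn9a. The third place of Scn4b in saline came from replicate 3, since Scn4b lay above Scn3b in 1 of 4 saline libraries. Neighbours whose ranges over the libraries overlapped were Scn2a and Scn2b, Scn2b and Scn3b, Scn8a and Scn1a, and Scn4b and Scn9a in morphine, and the first 5 genes of the order in saline. Within the libraries, Scn2b still lay above Scn3b, and Scn4b above Scn9a, in 4 of 4 morphine libraries, while Scn2a lay above Scn2b in 2 of 4. Scn1a lay above Scn8a in all 4 saline libraries, and Scn8a above Scn1a in 3 of 4 morphine libraries.

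The genes lie in few places of the genome. Scn1a, Scn2a, Scn3a and Scn9a lie within 1177845 bp of chromosome 2, Scn2b, Scn3b and Scn4b on chromosome 9 and Scn8a on chromosome 15 (GRCm38). For neighbours on chromosome 2, Pearson's r of log2(FPKM + 1) over the 8 libraries was −0.29 for Scn2a and Scn3a and −0.10 for Scn1a and Scn9a. On chromosome 9 it was 0.79 for Scn2b and Scn4b. The highest value over the 28 member pairs was 0.82, for Scn1a and Scn4b, and the lowest −0.63, for Scn2a and Scn4b. These values describe 8 libraries of 2 groups, with 1 library apart, and carry no test.

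The tested genes whose pattern was most like that of Scn4b were Drd1 (r = 0.991), the transcription factor gene Foxp2 (0.989) and Ppp1r1b (0.986). All 3 are among the 20 striatal markers. For Scn1a they were Abcd2 (0.978), a peroxisomal fatty acid transporter gene, Ugt8a (0.972), a gene of myelin lipid synthesis, and Eci2 (0.965), a gene of fatty acid oxidation. For Scn2a they were Lmo7, Aloxe3 and Atp8a1 (0.967 to 0.980), and for Scn8a Csmd1, Supt20 and Kctd16 (0.964 to 0.972). Pcdh9, Rnf121 and Dip2c were nearest to Scn3a (0.959 to 0.973), and Rab11fip5, Sipa1l3 and Spock2 to Scn9a (0.963 to 0.973). Hrasls, H2-Eb1 and Cavin1 were nearest to Scn2b (0.923 to 0.976), and Snd1, Clpb and Samd14 to Scn3b (0.962 to 0.967). A value above 0.92 over 8 libraries was thus reached by 3 genes for every member.

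None of the 29 tested genes in 4 lists of channel partners passed the test (limma; 2.52% of all tested genes did). Scn7a, Scn10a and Scn11a, further alpha subunit genes, stayed at or under 0.34 FPKM and were not tested, and Scn4a was listed at 0 in every library. Of 12 tested genes that anchor the channels (median log2 change 0.07), those with the smallest p were Cntnap1, which flanks the node (−0.79 ± 0.23 SE, adjusted p = 0.0927), the adhesion gene Cntn1 (0.26 ± 0.10, adjusted p = 0.189) and the spectrin gene Sptan1 (0.27 ± 0.11, adjusted p = 0.206). Ank3, the gene of ankyrin-G, had 37.23 to 50.49 FPKM in morphine and 30.82 to 61.27 FPKM in saline. Of 12 tested intracellular regulators (median 0.11), those with a small p included Bace1, the protease that cuts beta subunits (0.33 ± 0.15, adjusted p = 0.248), and the calmodulin gene Calm2 (0.22 ± 0.14, adjusted p = 0.424). Of the 4 genes of the sodium leak channel complex (median 0.09), the smallest p belonged to Fam155a (0.52 ± 0.24, adjusted p = 0.256), and the channel gene Nalcn itself had 10.66 to 13.26 FPKM in morphine and 9.33 to 12.65 FPKM in saline.

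Markers of other cell types give the setting of these values. Of 10 pan-neuronal markers none passed, with summed levels of 3040 to 3384 FPKM in morphine and 2203 to 2972 FPKM in saline (2851 to 2972 FPKM without saline replicate 3). Of 9 tested cortical markers Neurod1 rose, and Slc17a7, the glutamate transporter gene of cortical neurons, had 105.76 to 139.48 FPKM in morphine and 19.61 to 98.02 FPKM in saline (90.82 to 98.02 FPKM without saline replicate 3). Among glial and vessel markers, Ntsr2 fell of 10 astrocyte genes (summed level 847.3 to 1085 FPKM in morphine, 1111 to 1486 FPKM in saline), none of 11 oligodendrocyte genes passed (2026 to 3175 FPKM in morphine, 3178 to 3614 FPKM in saline), and none of 6 microglial genes passed (336.7 to 352.1 FPKM in morphine, 294.8 to 428.4 FPKM in saline, and 358.4 to 428.4 FPKM there without replicate 3). Of 7 endothelial genes Ly6c1, Slco1a4 and Slc2a1 fell (112.8 to 123.8 FPKM in morphine, 155.3 to 179.2 FPKM in saline). The part of these cell types in the values of the sodium channel genes was not tested.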

How the data were processed

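Complementary DNA was primed with oligo-dT, extended by template switching and PCR amplified before Illumina sequencing, per the labels' protocols, which name no molecular identifiers. The authors deposited FPKM values for all 8 libraries in 1 table, rounded to 2 decimals. The build was mm10, with RSEM, StringTie 1.3.1, HISAT2, Bowtie2 2.2.8 and fastp 0.18.0 as tools, per the submitters' processing notes that state no roles, annotation or strand setting. FPKM is relative: a transcript class that takes more reads lowers the values of all others.

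Low values (11855 checked) were whole multiples of their gene's lowest value, within 0.1, in 21.6% of cases, against 20% for evenly spread values. No reads were recovered, so no count test or counting interval is given. Between 0.55 and 1.22% of values were identical in any pair of libraries, so none was a copy. Symbols and coordinates came from GENCODE M21 (22232 of 22337 identifiers matched).

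Morphine was compared with saline by limma 3.58.1 in R 4.3.3 on log2(FPKM + 1), with a mean-variance trend, two-sided, for 12536 genes reaching 1 FPKM in 4 or more libraries, with Benjamini-Hochberg adjustment and a threshold of 0.05. The fit was tested on simulated data. Named genes were the members, up to 3 partner genes per list with the smallest p, the 3 protein-coding genes most correlated with each member, and Ppp1r1b, Drd1, Slc17a7 and Pvalb. Other genes were named after their values were seen, and some genes under the rule are not reported here. The members, lists, tests and alternatives were chosen with earlier results of these data known.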

Additional observations from a re-analysis of the deposited data

Results flagged for a closer look

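Of 16 groups of 4 libraries (8 genes in 2 groups), 3 held a library whose gap to its nearest neighbour took up more of the range than Dixon's 95% critical value of 0.829 allows, where chance flags about 1 in 20 groups. Scn2a had 47.4 FPKM in morphine replicate 4, below 63.38 to 63.67 FPKM in the other morphine libraries. Scn2b had 79.76 FPKM in morphine replicate 1, above 46.89 to 52.42 FPKM in the others. Scn4b had 124.4 FPKM in saline replicate 3, above 18.51 to 23.12 FPKM in the other saline libraries.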

How the results depend on the processing

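Settings tried were a pseudocount of 0.1, no filter on low values, a minimum FPKM of 5, upper quartile scaling, removal of mitochondrial genes, no mean-variance trend, a replicate block and leaving out each library. The number of genes passing was 17 with no filter and 5 with the replicate number as a block, and 0 to 450 when a library was left out. The number of sodium channel members passing was 0 with no filter and 0 with the replicate block (Scn4b adjusted p = 0.0621 and 0.0572), and 0 to 1 when a library was left out. The difference between Scn4b and Scn2b was −3.25 with the replicate block, where the exact permutation p of 0.125 is the smallest that 4 pairs allow, and −3.49 to −2.80 when a library was left out. The replicate numbers do not pair the libraries: the correlations of same-numbered deviations were 0.052, 0.037, −0.059 and −0.205. Scn8a turned to −0.024 under upper quartile scaling and −0.019 without mitochondrial genes, and ranged from −0.10 to 0.14 when a library was left out. Scn3a then ranged from −0.16 to 0.071. The cause was not tested. Scn1a, Scn2a, Scn2b and Scn3b kept their direction in all 15 alternatives and passed in none. The settings of the filter, the trend and the replicate block leave the change itself as it was, so they say nothing of direction. The unknown depth limits Scn9a and the morphine values of Scn4b most, since values near or under an FPKM of 1 rest on few reads.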
